A study of Mus musculus with 24 samples.

Results

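The genes of the secretory pathway and the unfolded protein response were followed across 4 reproductive stages and 2 genotypes of mice. The set was a list of 46 genes. Each was represented by the probe set that carries its symbol alone, and where a gene had more than 1, by the probe set of highest mean over the 24 arrays. In this way 44 of the 46 genes were measured, of 22180 genes with such a probe set, and all 44 passed the filter on low values that left 15234 genes for testing. Pdia4, a disulfide isomerase gene, and Srp54a, which encodes a subunit of the signal recognition particle, were only on probe sets shared by several genes and have no values here. By role the 44 genes were 8 stress sensors and transcription factors, 11 chaperones and co-chaperones, 5 disulfide and prolyl isomerases, 4 genes of ER-associated degradation, 9 genes of targeting, translocation and signal peptide cleavage, and 7 genes of vesicle coats and of the retrieval of escaped ER proteins.

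Proteins that a cell secretes enter the endoplasmic reticulum (ER) through the translocon, lose their signal peptide, fold with the help of chaperones and of enzymes that form disulfide bonds, and leave in COPII vesicles, while COPI vesicles bring escaped residents back. When unfolded protein gathers in the ER, the sensors IRE1, PERK and ATF6 start the unfolded protein response: IRE1 splices the Xbp1 mRNA, PERK slows translation and favours ATF4 and then CHOP, and ATF6 is cleaved into a transcription factor. The mammary epithelium enlarges its ER in pregnancy and lactation, when it exports milk protein, and XBP1 is also known as the factor that expands the ER of plasma cells.

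RNA was measured on 24 single-colour expression arrays, with 8 groups of 3 arrays. Wild-type and mutant mice, both of a mixed strain with FVB, 129SVEV and Black Swiss ancestry, entered at stages that the labels code as V, dp12, dp18 and Lac10. The codes are read here as virgin, days of pregnancy and days of lactation, although the design text calls the numbers months, and no ages are given. The title concerns BRCA1, a tumour suppressor of DNA repair, but the labels name neither the mutated allele, nor what would drive its deletion, nor the tissue. The labels' treatment text speaks of a pull-down of a tagged PAB-1 protein, whereas their extraction text gives total RNA isolated with Trizol, and this is not settled here. The titles give each mutant array a number of its own and most arrays a weight in grams, as for separate animals. No label states outright that each array is a separate animal, so p-values are read as measuring the spread between arrays. Levels are log2 values, listed in the order of replicates 1 to 3, and differences are log2 differences with the standard error (SE) of a limma fit over all 24 arrays. A gene is called where its p-value, adjusted by Benjamini-Hochberg over the 15234 genes, is under 0.05. Counts of members at an unadjusted p under 0.05 are given without the share of all genes at that cut. They are therefore not read as particular to the set. In whole tissue, fewer cells of a type and less RNA per cell cannot be told apart. Levels of different genes come from different probes and are not compared.

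Milk genes were higher at Lac10 than in virgins: the mean of 13 milk genes lay between 11.05 and 11.86 in the wild-type and between 10.41 and 11.66 in the mutant Lac10 arrays, against 7.92 to 9.35 in the virgin arrays. In wild type it was 9.91 to 10.60 at dp12 and 10.58 to 10.99 at dp18, below the Lac10 arrays. In mutants it was 10.23 to 10.82 at dp12 and 10.67 to 10.91 at dp18, and both ranges overlapped with Lac10. Over all 41345 probe sets, 3 of the 24 arrays had a median correlation with the others under 0.9, namely wild-type dp18 replicate 1 (0.837), mutant dp18 replicate 1 (0.863) and mutant Lac10 replicate 2 (0.799). Over the genes tested 8 arrays were under 0.9, all 3 wild-type virgin arrays and these 3 included, so the choice of the 3 depends on the features used. In these 3 arrays the mean level of the 44 genes was 8.19, 8.25 and 7.49, against 8.40 to 9.02 in the other arrays, and 16 housekeeping genes lay 0.50, 0.47 and 0.81 below their means. The lowest of all 24 levels was in mutant Lac10 replicate 2 for 37 of the 44 genes. Wild-type Lac10 replicate 1 correlated best with a mutant dp12 array (r = 0.988) and mutant dp18 replicate 2 with a mutant Lac10 array (r = 0.973), and a fit without these 2 arrays is given below. They were not alone, since 13 of the 24 arrays, these 2 included, correlated best with an array of another group.

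**Figure D1:**
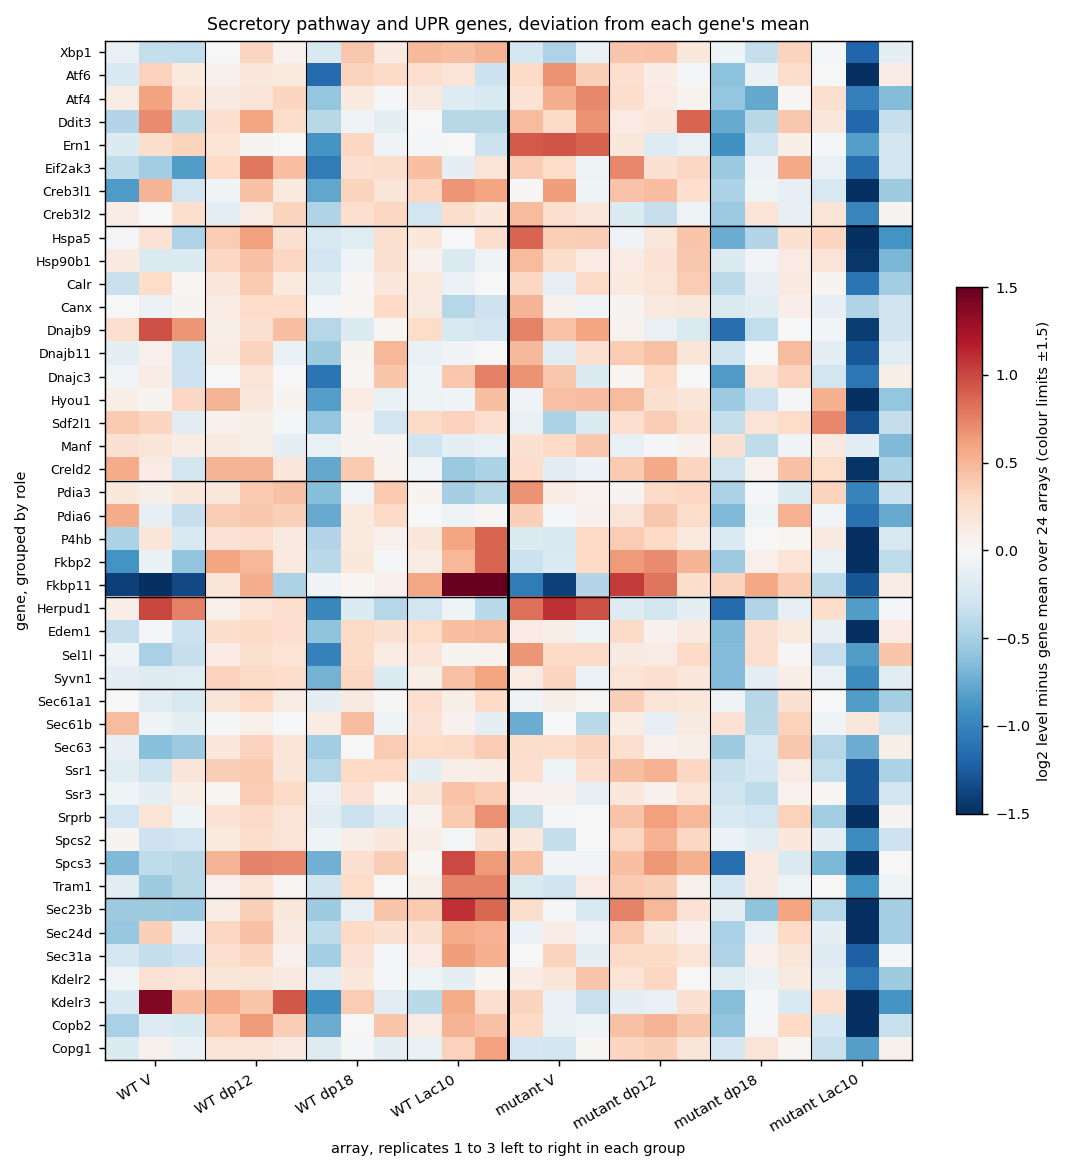
Level of each of the 44 genes (rows, grouped by role) in each of the 24 arrays (columns, grouped by genotype and stage), as the log2 difference from the gene's mean over all arrays. Mutant Lac10 replicate 2 is the lowest column for 37 of the 44 genes.

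In wild type, the gene that moved most was Fkbp11, which encodes a prolyl isomerase anchored in the membrane of the ER and known from secretory cells. Its levels were 5.67, 5.47 and 5.71 in the virgin arrays and 7.25, 7.61 and 6.59 at dp12. They were 7.01, 7.10 and 7.14 at dp18 and 7.65, 9.12 and 9.52 at Lac10. All 9 arrays of pregnancy and lactation lay above all 3 virgin arrays, and replicate 1, the Lac10 array nearest to a mutant dp12 array, was the lowest of its group. From virgin to Lac10 Fkbp11 rose by 3.15 (SE 0.40, limma adjusted p = 0.000211), and leaving out any 1 of the 6 arrays gave differences from 2.77 to 3.71 with adjusted p values from 9.83e-06 to 0.00332. From virgin to dp12 it rose by 1.54 (SE 0.40, adjusted p = 0.0318), a call that was lost without dp12 replicate 1 (adjusted p = 0.119) or 2 (0.137), without virgin replicate 2 (0.0997) or 3 (0.0932), and after centring of the arrays on housekeeping genes (1.33, adjusted p = 0.0528).

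Sec23b and Tram1 were the other members that rose from virgin to Lac10 in wild type. Sec23b encodes a subunit of the inner COPII coat, which packs cargo at ER exit sites. Its levels were 7.39, 7.39 and 7.37 in the virgin arrays, 8.03, 8.28 and 8.09 at dp12, 7.39, 7.80 and 8.34 at dp18 and 8.32, 9.02 and 8.78 at Lac10. The virgin arrays lay close together and below every dp12 and Lac10 array, while at dp18 the array of low correlation was back at the virgin level. Sec23b was 1.32 higher at Lac10 than in virgins (SE 0.31, limma adjusted p = 0.0133), and lost its call without Lac10 replicate 2 (1.16, adjusted p = 0.0853) or 3 (1.29, 0.0605) or without virgin replicate 3 (1.32, 0.0533). Tram1 encodes a membrane protein beside the translocon that helps nascent chains to enter. Its levels were 10.26, 9.90 and 10.01 in virgins and 10.52, 11.17 and 11.18 at Lac10, again without overlap. The difference of 0.90 (SE 0.24, adjusted p = 0.0287) was not called without Lac10 replicate 2 (0.79, adjusted p = 0.137) or 3 (0.78, 0.134), without virgin replicate 2 (0.82, 0.0911) or 3 (0.87, 0.101), or with centring on the array median (0.95, 0.0526).

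Taken over the whole set, 3 of 44 genes rose and 0 fell from virgin to Lac10 in wild type, while 7.24% of all genes tested were called in that comparison, 6.01% as higher and 1.23% as lower. The median difference of the 44 genes was 0.26, against 0.15 over all genes, and 13 had an unadjusted p under 0.05. The ranges of the 3 arrays lay apart and higher at Lac10 for 15 genes (34.1%) and lower for 3 (6.82%), where the same held for 26.4% and 10.9% of all genes. The count of called members, 3 of 44, was thus no larger a share than over all genes. The count depends on the pooled spread: without the 3 arrays of low correlation, none of which belongs to these groups, the differences were the same but 17 genes were called, 15 higher and 2 lower, beside 27.8% of all genes. Leaving out 1 array, the count was 1 without Lac10 replicate 2 (2.11% of all genes called) or 3 (2.38%) or virgin replicate 3 (2.74%). It was 2 without virgin replicate 2 (4.36%), 3 without Lac10 replicate 1 (6.25%) and 4 without virgin replicate 1 (6.78%). It was 16 with housekeeping centring, beside 17.5% of all genes.

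By role, the isomerase and vesicle genes lay highest above their virgin levels at Lac10 in wild type. The median difference from virgin was 0.72 for the 5 isomerases, 0.55 for the 7 vesicle genes, 0.47 for the 4 degradation genes and 0.37 for the 9 genes of entry into the ER. It was 0.03 for the 11 chaperones and -0.06 for the 8 sensors and factors. These medians are descriptions, and no difference between roles was tested.

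**Figure D2:**
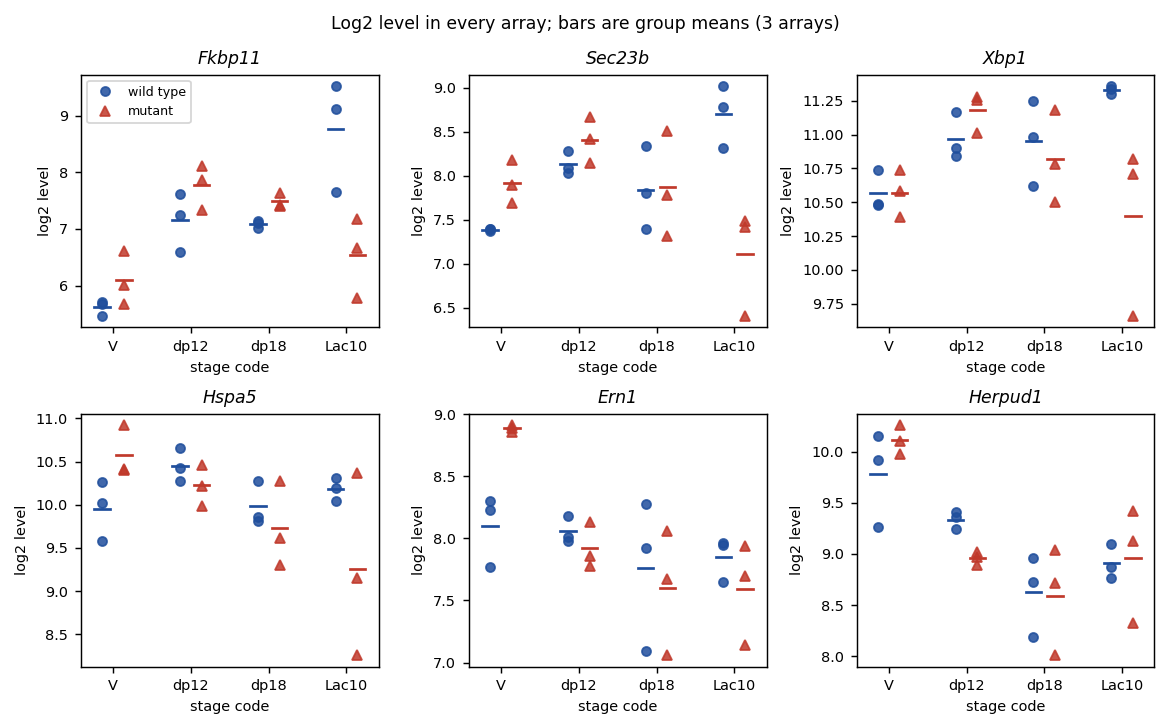
Log2 level (vertical axis) of selected members in each of the 24 arrays, by stage (horizontal axis) and genotype, 1 point per array with the group mean as a line. In wild type Fkbp11 and Sec23b lay higher in every Lac10 array than in every virgin array, and at Lac10 every mutant array of both genes lay below every wild-type array.

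Among the sensors and factors Xbp1 lay furthest above its virgin level in lactating wild type. Xbp1 encodes the transcription factor made when IRE1 splices its mRNA, and whether its probe set separates the spliced form is not given in the sources used here. Its levels were 10.74, 10.49 and 10.48 in virgins, 10.84, 11.17 and 10.90 at dp12, 10.62, 11.25 and 10.98 at dp18 and 11.34, 11.30 and 11.36 at Lac10. The Lac10 arrays were the 3 highest of the 12 and lay close together. The difference from virgin of 0.76 (SE 0.25, limma adjusted p = 0.073) was not called in the fit of all arrays and was called without the 3 arrays of low correlation (adjusted p = 0.00362).

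Eif2ak3, which encodes the sensor PERK, was 6.98, 6.83 and 6.52 in wild-type virgins and 7.66, 8.15 and 7.81 at dp12. It was 6.31, 7.60 and 7.62 at dp18 and 7.81, 7.21 and 7.55 at Lac10. All dp12 and Lac10 arrays lay above the virgin arrays, and the low dp18 value was in the array of low correlation. The difference at dp12 of 1.09 (SE 0.34, limma adjusted p = 0.0557) missed the threshold. Ern1, which encodes IRE1, overlapped between virgins and each later stage. It was 7.77, 8.23 and 8.30 in wild-type virgins, 8.18, 8.01 and 7.98 at dp12, 7.09, 8.28 and 7.92 at dp18 and 7.95, 7.96 and 7.65 at Lac10. Its dp12 arrays lay above its Lac10 arrays.

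The virgin and Lac10 ranges of the other sensors and factors overlapped in wild type. Atf6, the third sensor, was 8.52, 9.09 and 8.89 in virgins, 8.81, 8.91 and 8.90 at dp12, 7.59, 9.08 and 9.03 at dp18 and 9.00, 8.94 and 8.43 at Lac10. Atf4, the factor favoured by PERK, was 8.43, 8.93 and 8.54 in virgins, 8.46, 8.51 and 8.64 at dp12, 7.74, 8.47 and 8.29 at dp18 and 8.46, 8.13 and 8.09 at Lac10. Ddit3, which encodes the pro-apoptotic factor CHOP, was 6.59, 7.74 and 6.62 in virgins, 7.28, 7.62 and 7.29 at dp12, 6.62, 6.98 and 6.89 at dp18 and 7.04, 6.61 and 6.62 at Lac10. All 3 genes were lowest at dp18 in the array of low correlation and highest at Lac10 in replicate 1, the array nearest to a mutant dp12 array. Creb3l1, which encodes an ER-anchored factor that drives secretion genes, was 6.76, 8.12 and 7.33 in virgins, 7.56, 8.05 and 7.76 at dp12, 6.84, 7.95 and 7.80 at dp18 and 7.93, 8.28 and 8.21 at Lac10. Its relative Creb3l2 was 8.49, 8.39 and 8.62 in virgins, 8.25, 8.49 and 8.71 at dp12, 7.93, 8.63 and 8.69 at dp18 and 8.11, 8.64 and 8.54 at Lac10. Creb3l1 spread more among its virgin arrays than among its Lac10 arrays, and the Creb3l2 ranges of all 4 stages overlapped.

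The chaperones lay on both sides of their virgin levels in lactating wild type. Hspa5, which encodes BiP, the chief chaperone of the ER lumen and the standard readout of the unfolded protein response, was 10.02, 10.26 and 9.58 in virgins, 10.43, 10.66 and 10.27 at dp12, 9.81, 9.86 and 10.28 at dp18 and 10.20, 10.04 and 10.31 at Lac10. The dp12 arrays were all above the virgin arrays and the Lac10 arrays overlapped with them. From virgin to Lac10 the difference of Hspa5 was 0.23 (SE 0.36, limma adjusted p = 0.73, and 0.571 without the 3 arrays of low correlation). Hsp90b1, which encodes the ER member of the HSP90 family, was 10.76, 10.40 and 10.42 in virgins, 10.93, 11.06 and 10.93 at dp12, 10.34, 10.57 and 10.85 at dp18 and 10.69, 10.41 and 10.57 at Lac10. It too was highest at dp12, and its Lac10 range lay inside its virgin range, with a difference of 0.03 (adjusted p = 0.965).

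Of the 11 chaperone genes 6 lay above and 5 below their virgin level at Lac10 in wild type, from -0.71 for Dnajb9 to 0.44 for Dnajc3. Dnajb9, which encodes a co-chaperone that binds BiP and restrains IRE1, was 10.30, 11.01 and 10.71 in virgins, 10.14, 10.28 and 10.50 at dp12, 9.62, 9.85 and 10.08 at dp18 and 10.32, 9.81 and 9.76 at Lac10. Herpud1, which encodes a membrane protein of the ER degradation complex, was 9.26, 10.16 and 9.92 in virgins, 9.24, 9.36 and 9.41 at dp12, 8.19, 8.96 and 8.73 at dp18 and 8.87, 9.10 and 8.76 at Lac10. All 3 Lac10 arrays lay below all virgin arrays for Herpud1, and 2 of them for Dnajb9. Neither fall was called in the fit of all arrays (Dnajb9 -0.71, limma adjusted p = 0.166; Herpud1 -0.87, adjusted p = 0.074), and both were without the 3 arrays of low correlation (adjusted p = 0.0131 and 0.00322). These were the 2 genes that fell in that fit, while Edem1 and Syvn1, which act in the same degradation pathway, were among the 15 that rose, by 0.63 and 0.54.

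The proximal 250 bases of the promoters were set beside these values, because the ER stress element (ERSE) is the known binding site of ATF6 with NF-Y upstream of chaperone genes. Sequences are from RefSeq on GRCm38.p6 and end at the base before the annotated start. They were found for 36 of the 44 genes. Shown are the promoters of Hspa5 and Hsp90b1, whose Lac10 levels overlapped with the virgin range, of Herpud1, which lay lower there, and of Fkbp11 and Sec23b, which rose. Capitals mark matches on either strand to the consensus of ERSE and of ERSE-II, a related element, and to the UPRE core (TGACGTGG, a site of XBP1) and the CARE core (TGATGNAA, a site of ATF4).
Hspa5, chr2:34771840-34772089, plus strand: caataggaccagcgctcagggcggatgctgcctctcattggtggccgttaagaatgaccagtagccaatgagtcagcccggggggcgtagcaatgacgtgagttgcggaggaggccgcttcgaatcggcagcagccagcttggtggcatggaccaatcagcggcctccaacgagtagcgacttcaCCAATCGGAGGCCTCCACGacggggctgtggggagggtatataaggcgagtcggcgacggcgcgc
Hsp90b1, chr10:86705445-86705694, minus strand: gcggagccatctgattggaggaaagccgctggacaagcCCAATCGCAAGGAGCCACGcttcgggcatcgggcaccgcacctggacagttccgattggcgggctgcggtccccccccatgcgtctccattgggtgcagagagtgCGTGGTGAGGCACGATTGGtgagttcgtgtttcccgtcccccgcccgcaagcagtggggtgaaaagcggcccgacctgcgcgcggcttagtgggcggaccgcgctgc
Herpud1, chr8:94386179-94386428, plus strand: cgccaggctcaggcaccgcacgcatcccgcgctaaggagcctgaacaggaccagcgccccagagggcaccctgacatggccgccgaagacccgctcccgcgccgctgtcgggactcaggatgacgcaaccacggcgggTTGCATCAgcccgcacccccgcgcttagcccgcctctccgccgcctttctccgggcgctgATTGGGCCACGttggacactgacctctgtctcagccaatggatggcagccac
Fkbp11, chr15:98727628-98727877, minus strand: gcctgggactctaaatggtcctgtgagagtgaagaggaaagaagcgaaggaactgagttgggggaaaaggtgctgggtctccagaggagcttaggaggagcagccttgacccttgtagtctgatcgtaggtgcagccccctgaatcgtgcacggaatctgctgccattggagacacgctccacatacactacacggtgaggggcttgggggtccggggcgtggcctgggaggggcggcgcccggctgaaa
Sec23b, chr2:144555979-144556228, plus strand: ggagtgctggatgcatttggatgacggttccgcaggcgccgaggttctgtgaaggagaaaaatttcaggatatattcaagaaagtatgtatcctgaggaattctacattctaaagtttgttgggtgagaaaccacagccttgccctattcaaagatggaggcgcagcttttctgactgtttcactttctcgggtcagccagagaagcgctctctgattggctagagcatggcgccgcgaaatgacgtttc

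An ERSE match was found in 8 of the 36 genes with a window (22.2%), against 0.13% of 27025 genes in the same table. As the element is known from chaperone genes, which the list holds, this contrast is no independent result. The 8 genes were Calr, Canx, Creld2, Dnajc3, Hsp90b1, Hspa5, Pdia6 and Syvn1, of which all but Syvn1, a ubiquitin ligase of the degradation pathway, act in folding. Hsp90b1 held 1 match on each strand. The Herpud1 window ends in letters that follow ERSE up to its last base, so a match across that end would be missed. Herpud1 is counted here as having no ERSE match. The ERSE-II letters were in Herpud1 alone (2.8%, against 0.04% of all genes). The UPRE core was in Kdelr3, which encodes a retrieval receptor, and in Sec24d, which encodes a COPII cargo adaptor (5.6%, against 0.6%). The CARE core was found in 1 gene, again Herpud1 (2.8%, against 3.91%), and the GAS letters TTCNNNGAA, to which STAT5 binds, in 3 genes (8.3%, against 8.13%), not marked here. No matches of different motifs overlapped. The windows of Fkbp11 and Sec23b printed here held none of the 4 marked motifs, which says only that these letters are not in these bases. The Sec23b window did hold the unmarked GAS letters, in the stretch ttctgtgaa. From virgin to Lac10 in wild type the median difference was 0.04 for the 8 genes with an ERSE match and 0.37 for the 28 with a window and no match. A match is a description of the sequence, and no test was made of it.

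Before lactation the wild-type set moved with the rest of the genes. From virgin to dp12, 1 of 44 genes was called, Fkbp11, beside 6.45% of all genes (5.91% as higher), and 36 lay above and 8 below 0 with a median of 0.34, against 0.28 over all genes. At dp12 the arrays of 20 genes (45.5%) lay wholly above the virgin arrays, where 41.7% of all genes did. Without the 3 arrays of low correlation 13 members were called as higher at dp12, beside 41.2% of all genes. From dp12 to dp18 the median was -0.30, against -0.21 over all genes, 0 genes were called (0% of all genes) and 1 had an unadjusted p under 0.05. Without the 3 arrays of low correlation this median was -0.11, against -0.04 over all genes. From dp18 to Lac10 the median was 0.29, against 0.09 over all genes, and without the 3 arrays it was 0.08, against -0.03, with 24 genes above and 20 below 0. In that step 0 genes were called (0% of all genes), with 5 at an unadjusted p under 0.05. Fkbp11 led that step with a difference of 1.68 (SE 0.40, limma adjusted p = 0.353), followed by Sec23b with 0.86 (SE 0.31, adjusted p = 0.469); without wild-type Lac10 replicate 1 and mutant dp18 replicate 2 Fkbp11 was called in it (2.23, adjusted p = 0.00439). With housekeeping centring the median from dp12 to dp18 turned to 0.04.

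In mutants Fkbp11 also rose from virgin to dp12, and 1 of its Lac10 arrays lay within the virgin range. It was 6.02, 5.67 and 6.62 in mutant virgins, 8.11, 7.87 and 7.33 at dp12, 7.40, 7.64 and 7.43 at dp18 and 6.67, 5.78 and 7.18 at Lac10. The dp12 and dp18 arrays all lay above the virgin arrays, and the Lac10 arrays lay below all dp12 and dp18 arrays and overlapped with the virgin range through replicate 2 alone. The rise to dp12 was 1.67 (SE 0.40, limma adjusted p = 0.0181), not called without dp12 replicate 1 (adjusted p = 0.0847) or 2 (0.0826) or without virgin replicate 1 (0.0523) or 2 (0.131). From virgin to Lac10 the difference was 0.44 (SE 0.40, adjusted p = 0.487), and 0.82 without Lac10 replicate 2 (adjusted p = 0.501). Sec23b was 8.18, 7.90 and 7.69 in mutant virgins, 8.67, 8.42 and 8.14 at dp12, 7.78, 7.32 and 8.51 at dp18 and 7.49, 6.41 and 7.42 at Lac10, so that every Lac10 array lay below every virgin array. That difference of -0.82 was not called (adjusted p = 0.127).

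Herpud1 fell in mutants from virgin to dp12 by 1.16 (SE 0.29, limma adjusted p = 0.0243), the other of the 2 members called in that step beside 4.44% of all genes (3.02% as higher and 1.42% as lower). Its levels were 9.98, 10.26 and 10.11 in mutant virgins, 8.97, 8.89 and 9.02 at dp12, 8.01, 8.72 and 9.04 at dp18 and 9.42, 8.32 and 9.13 at Lac10. The 3 virgin arrays were the highest of the 12, and the spread at dp12 was small beside the gap. The call held without virgin replicate 1 (adjusted p = 0.0436). It did not hold without virgin replicate 2 (0.13) or 3 (0.0717), without dp12 replicate 1 (0.0695), 2 (0.107) or 3 (0.0769), or with centring on the array median (-1.10, adjusted p = 0.0933). Over the 44 genes the median of this step was 0.13, against 0.01 over all genes, and it was -0.01 with housekeeping centring. Without the 3 arrays of low correlation 5 members were called, Fkbp11 and Xbp1 as higher and Dnajb9, Ern1 and Herpud1 as lower, beside 10.5% of all genes. Without single arrays of the 2 groups 0 or 1 members were called, beside 1.72% to 3.88% of all genes.

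From virgin to Lac10 in mutants 4 members fell, Ern1, Herpud1, Dnajb9 and Kdelr2, beside 2.88% of all genes called, 2.59% as lower, and 0 rose. Ern1 was 8.89, 8.91 and 8.86 in mutant virgins, 8.13, 7.78 and 7.86 at dp12, 7.06, 7.67 and 8.06 at dp18 and 7.94, 7.14 and 7.70 at Lac10. The 3 virgin arrays lay close together and above all other arrays of the gene, wild type included. Ern1 fell by 1.29 (SE 0.28, limma adjusted p = 0.0221) and Herpud1 by 1.16 (SE 0.29, adjusted p = 0.0376).

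Dnajb9 fell by 1.17 (SE 0.31, limma adjusted p = 0.0477), from 10.79, 10.48 and 10.64 in mutant virgins to 10.01, 8.63 and 9.75 at Lac10. At dp12 it was 10.10, 9.94 and 9.83, and at dp18 8.92, 9.68 and 10.06, so all mutant arrays after the virgin stage lay below the virgin arrays. Kdelr2, which encodes a receptor that returns ER residents from the Golgi, fell by 0.82 (SE 0.20, adjusted p = 0.035), from 11.12, 11.19 and 11.43 to 10.88, 9.93 and 10.48. Its dp12 levels of 11.21, 11.32 and 11.01 overlapped with the virgin range, and its dp18 levels of 10.84, 10.92 and 11.14 with both.

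Mutant Lac10 replicate 2, the array of lowest correlation, gave the lowest Lac10 value of all 4 genes, and without it the 4 calls were lost. The differences were then -1.07 for Ern1 (limma adjusted p = 0.155), -0.84 for Herpud1 (0.279), -0.75 for Dnajb9 (0.334) and -0.57 for Kdelr2 (0.244). All 4 calls were also lost without virgin replicate 1, 2 or 3, and they were kept without Lac10 replicate 1 or 3, where 18 members were called without replicate 1, beside 11.8% of all genes, and 6 without replicate 3, beside 4.38%. Without replicate 2 the count was 0, beside 0.453%. When all 3 arrays of low correlation were left out, Ern1 (-1.07, adjusted p = 0.0104) and Herpud1 (-0.84, adjusted p = 0.0466) were called, and so they were, with Dnajb9, under housekeeping centring (Ern1 -0.90 and Herpud1 -0.77, adjusted p = 0.0156 and 0.0335). None of the 4 was called with centring on the array median.

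Hspa5 and Hsp90b1 were lower at Lac10 than in virgins in mutants without passing the test. Hspa5 was 10.92, 10.40 and 10.41 in mutant virgins, 9.99, 10.22 and 10.46 at dp12, 9.30, 9.61 and 10.27 at dp18 and 10.37, 8.26 and 9.15 at Lac10. Hsp90b1 was 11.10, 10.89 and 10.74 in mutant virgins, 10.74, 10.84 and 11.03 at dp12, 10.42, 10.58 and 10.75 at dp18 and 10.82, 9.16 and 9.94 at Lac10. For both, replicate 1 at Lac10 was close to the virgin arrays and replicate 2 far below. The difference for Hspa5 was -1.32 (SE 0.36, limma adjusted p = 0.0522), and -0.82 without Lac10 replicate 2 (adjusted p = 0.367).

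The 8 sensors and factors, Ern1 included, had a lower mean at Lac10 than in virgins in mutants, with a median of -0.92. Without mutant Lac10 replicate 2 the median was -0.48, and Xbp1 turned from -0.18 to 0.19, as it did to 0.22 with housekeeping centring. Xbp1 was 10.58, 10.39 and 10.74 in virgins, 11.26, 11.28 and 11.01 at dp12, 10.78, 10.50 and 11.18 at dp18 and 10.82, 9.66 and 10.71 at Lac10. It was highest at dp12 and overlapped between virgin and Lac10. Eif2ak3 was 7.73, 7.63 and 7.28 in virgins, 8.08, 7.59 and 7.67 at dp12, 6.80, 7.27 and 7.92 at dp18 and 7.24, 6.23 and 7.08 at Lac10, where all arrays lay below the virgin arrays. Atf6 was 9.04, 9.42 and 9.11 in virgins, 9.00, 8.86 and 8.73 at dp12, 8.13, 8.65 and 9.01 at dp18 and 8.76, 7.21 and 8.86 at Lac10. Atf4 was 8.54, 8.87 and 9.04 in virgins, 8.59, 8.44 and 8.37 at dp12, 7.74, 7.55 and 8.34 at dp18 and 8.56, 7.30 and 7.67 at Lac10. Atf6 lay below its virgin range in every later array, while Atf4 overlapped with it through replicate 1 at dp12 and at Lac10.

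Ddit3 was 7.50, 7.32 and 7.70 in mutant virgins, 7.15, 7.20 and 7.91 at dp12, 6.28, 6.62 and 7.44 at dp18 and 7.20, 5.85 and 6.68 at Lac10. Creb3l1 was 7.63, 8.24 and 7.55 in mutant virgins, 8.04, 8.08 and 7.87 at dp12, 7.14, 7.55 and 7.49 at dp18 and 7.38, 6.11 and 7.08 at Lac10. Creb3l2 was 8.85, 8.63 and 8.55 in mutant virgins, 8.18, 8.03 and 8.32 at dp12, 7.84, 8.58 and 8.26 at dp18 and 8.59, 7.39 and 8.42 at Lac10. In all 3 genes the lowest of the 12 mutant arrays was Lac10 replicate 2, and only in Creb3l2 did a Lac10 array reach the virgin range. Over the 44 genes, 42 lay below and 2 above their virgin level at Lac10 in mutants, with a median of -0.68, against -0.18 over all genes. The 2 were Fkbp11 and Sec61b, a small translocon subunit, at 0.33. Without Lac10 replicate 2, 38 genes lay below and 6 above 0, with a median of -0.34, against -0.07 over all genes. With housekeeping centring the medians were -0.29 for the set and 0.21 over all genes.

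Between these stages the medians of the mutant set were below 0, and no member was called. From dp12 to dp18 the median was -0.35, against -0.17 over all genes, and it was -0.20 without the 3 arrays of low correlation and turned to 0.02 with housekeeping centring. No member was called (0% of all genes), and 4 had an unadjusted p under 0.05, namely Atf4, Fkbp2, Spcs3 and Ssr1. The dp18 arrays of 15 genes (34.1%) lay wholly below the dp12 arrays, as for 20.6% of all genes. From dp18 to Lac10 the median was -0.41, against -0.10 over all genes, with 0 members called (0% of all genes) and 8 at an unadjusted p under 0.05. Without mutant Lac10 replicate 2 this median was -0.05, with 26 genes below and 18 above 0, and without the 3 arrays of low correlation it was -0.19. Among the 8 was Fkbp11, at -0.95 (SE 0.40, limma adjusted p = 0.987), and -0.57 without replicate 2 (adjusted p = 1). Both steps hold arrays of low correlation, and without these 0 members were called in either.

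**Figure D3:**
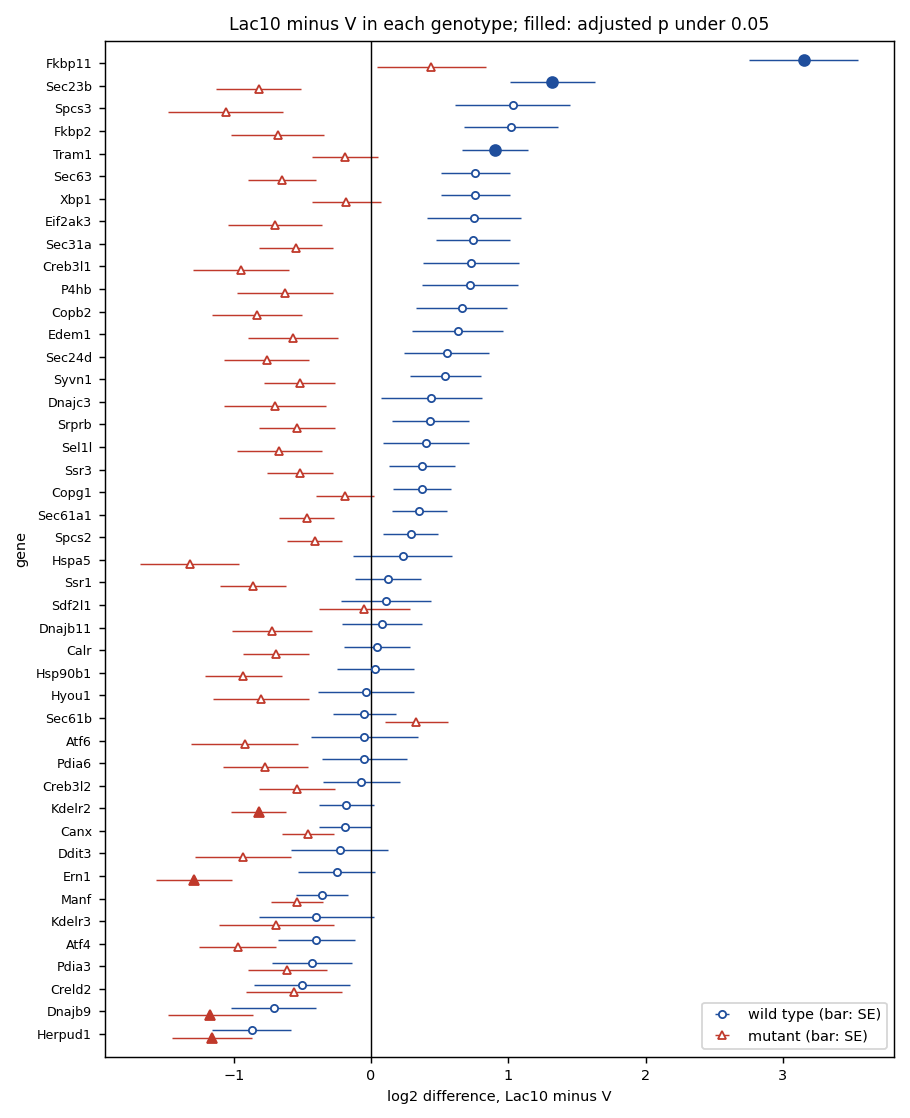
Log2 difference between Lac10 and V (horizontal axis) for each of the 44 genes (vertical axis), in wild type (circles) and mutants (triangles), with the SE of the limma fit as bars and filled symbols where the adjusted p was under 0.05. Fkbp11, Sec23b and Tram1 were called in wild type, and Kdelr2, Ern1, Dnajb9 and Herpud1 in mutants.

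The difference between the genotypes in the step from virgin to Lac10 was tested as a contrast of its own. Of 44 genes 43 had a lower value in mutants, with a median of -0.91, against -0.44 over all genes. An unadjusted p under 0.05 was found for 27, a count without its share over all genes. With limma 0 were called, beside 0.0197% of all genes. Fkbp11 (-2.70, SE 0.56) and Sec23b (-2.14, SE 0.44) came closest, both with an adjusted p of 0.0537. Spcs3, which encodes a signal peptidase subunit, followed at -2.09 (adjusted p = 0.0682), Creb3l1 at -1.68 (0.0691), and Hspa5 at -1.55 and Eif2ak3 at -1.45 (both 0.0805). The count was 12 without the 3 arrays of low correlation, beside 13.2% of all genes, with Fkbp11 at -2.32 (adjusted p = 0.0153) and Sec23b at -1.79 (0.0079). It was 0 without mutant Lac10 replicate 2, beside 0% of all genes, where the median was -0.55, against -0.29 over all genes, with 38 genes below and 6 above 0. It was 13 without replicate 1, beside 4.31% of all genes, and 19 without replicate 3, beside 25.1%. It was 2 without wild-type Lac10 replicate 1, which were Fkbp11 and Sec23b, beside 1.26%, and 3 with housekeeping centring, beside 1.98%, where the median was -0.59 for the set and -0.11 over all genes.

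Neither of the other step differences gave a call. From virgin to dp12 the median of the difference between genotypes was -0.22, against -0.21 over all genes, with 0 genes called beside 0.00656% of all genes and 2 at an unadjusted p under 0.05. From dp18 to Lac10 it was -0.60, against -0.21, with 0 genes called beside 0% of all genes and 12 at an unadjusted p under 0.05, led by Fkbp11 (-2.63, SE 0.56, limma adjusted p = 0.733). Without mutant Lac10 replicate 2 that median was -0.29, against -0.07 over all genes, and without the 3 arrays of low correlation -0.26.

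At Lac10 itself Fkbp11 and Sec23b were lower in mutants than in wild type, 2 of 44 genes, where 0.236% of all genes were called, each of them lower. As listed above, all 3 mutant arrays of both genes lay below all 3 wild-type arrays. Fkbp11 differed by -2.22 (SE 0.40, limma adjusted p = 0.0385) and Sec23b differed by -1.60 (SE 0.31, adjusted p = 0.042). Both calls were lost without mutant Lac10 replicate 2 (Fkbp11 -1.84, Sec23b -1.25, adjusted p = 0.315), without wild-type Lac10 replicate 2 (-2.04 and -1.44, adjusted p = 0.246) and without wild-type Lac10 replicate 3 (-1.84 and -1.56, adjusted p = 0.356). They were kept without wild-type Lac10 replicate 1 (-2.78 and -1.79, adjusted p = 0.000511 and 0.00991). The number of members called was 13 without mutant Lac10 replicate 1, beside 1.92% of all genes, 16 without replicate 3, beside 9.12%, and 3 without wild-type Lac10 replicate 1, beside 1.94%. It was 0 without the 3 arrays of low correlation (Fkbp11 -1.84 and Sec23b -1.25, adjusted p = 0.143) or with housekeeping centring (-1.98 and -1.36, adjusted p = 0.055).

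Of the 44 genes 43 had a lower mean in mutants at Lac10, with a median of -0.66, against -0.19 over all genes. Without mutant Lac10 replicate 2, 38 were lower and 6 higher, with a median of -0.39, against -0.07. The mutant arrays of 20 genes (45.5%) lay wholly below the wild-type arrays, where 12.4% of all genes did. With housekeeping centring the median was -0.42 for the set, 37 below and 7 above 0, and 0.05 over all genes, and with centring on the raw level of the housekeeping genes, added after seeing the data, it turned to 0.01 for the set and 0.48 over all genes. The medians by role ran from -1.22 for the isomerases, -0.91 for the vesicle genes and -0.73 for the entry genes to -0.56 for degradation, -0.55 for the chaperones and -0.45 for the sensors and factors. Without replicate 2 they were -0.60, -0.54, -0.47, -0.23, -0.11 and -0.07 in the same order. Among the members that missed the threshold were Sec24d (-1.21, limma adjusted p = 0.0804), Creb3l1 (-1.29, 0.0842), Xbp1 (-0.94, 0.0846), the signal recognition receptor subunit gene Srprb (-1.05, 0.0846), the prolyl isomerase gene Fkbp2 (-1.25, 0.0847), Spcs3 (-1.49, 0.0897), P4hb, which encodes the founding disulfide isomerase (-1.22, 0.0976), Copb2, a COPI coat gene (-1.14, 0.0978), and Tram1 (-0.84, 0.0978). Herpud1 was the 1 gene with a mean not below wild type (0.04, adjusted p = 0.948), and Hspa5 differed by -0.92 (adjusted p = 0.206).

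Other markers moved with this difference. The mean level of 10 luminal epithelial genes was 9.94, 6.61 and 7.64 in the mutant and 9.88, 8.55 and 8.78 in the wild-type Lac10 arrays, and all 10 had a lower mean in mutants, with a median of -1.03 and 0 called. Of 13 milk genes 10 were lower and 3 higher in mutants, with a median of -0.82 and 0 called. The mean of 8 white adipocyte genes was 6.64, 7.89 and 9.22 in the mutant arrays and 6.93 to 7.33 in wild type, with 6 of 8 higher in mutants and a median of 0.74. The 16 housekeeping genes were lower in mutants in 15 cases, with a median of -0.25 and 0 called. Their median deviation was -0.01, -0.81 and -0.04 in the mutant and 0.10, -0.11 and -0.13 in the wild-type Lac10 arrays. The marker medians include mutant Lac10 replicate 2, and the alternatives were not run for these genes. Genes of plasma cells, a cell type rich in ER, had means of 6.38 to 6.77 in the wild-type Lac10 arrays, within the 5.76 to 6.94 of the virgin arrays. The part of these values in the results on the 44 genes was not tested.

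**Figure D4:**
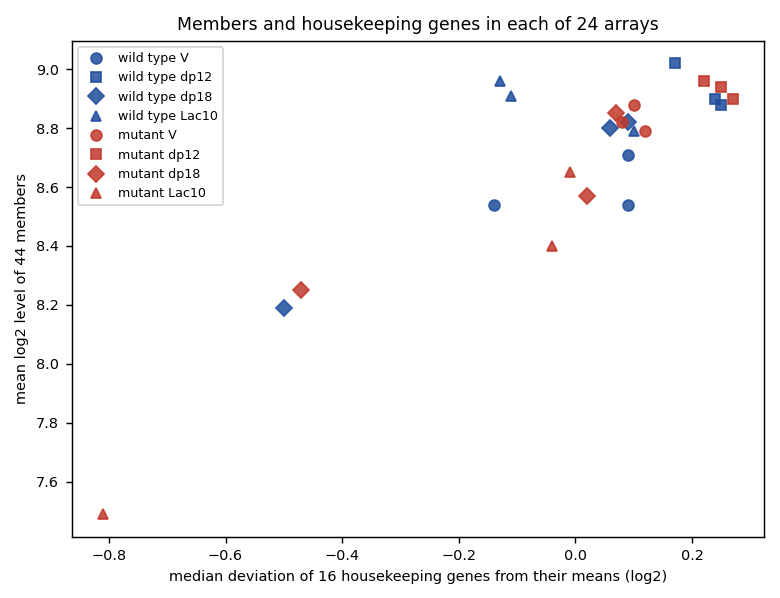
Mean log2 level of the 44 genes (vertical axis) against the median log2 deviation of 16 housekeeping genes from their own means (horizontal axis), 1 point per array, coloured by genotype and shaped by stage. The 3 arrays of low correlation lie apart at the lower left, at 8.19, 8.25 and 7.49, and the 2 other mutant Lac10 arrays, at 8.65 and 8.40, lie below the wild-type Lac10 arrays at 8.79 to 8.96.

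At the earlier stages no member was called between the genotypes. In virgins the median difference was 0.22, against 0.20 over all genes, with 0 members called beside 0.0263% of all genes and 4 at an unadjusted p under 0.05. The 4 were Ern1 (0.79, SE 0.28, limma adjusted p = 0.258), Eif2ak3 (0.77, SE 0.34, adjusted p = 0.289), Sec63, which encodes a translocon partner that recruits BiP (0.72, adjusted p = 0.255), and Sel1l, which encodes the scaffold of a degradation complex (0.71, adjusted p = 0.286). Every mutant virgin array lay above every wild-type virgin array in each of these 4 genes. Such a separation was found for 11 members (25%), as for 25.5% of all genes. Without the 3 arrays of low correlation, none of them virgin, the 4 genes were called (adjusted p = 0.00576 for Ern1 and 0.0185 for Eif2ak3) beside 20.1% of all genes.

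At dp12 the median genotype difference was 0.00, with 22 members on each side of 0, and at dp18 it was -0.05 with 28 members lower in mutants, and -0.10 with 33 lower without the 3 arrays of low correlation. No member was called at either stage, where 0% of all genes were, and no member had an unadjusted p under 0.05. Averaged over the 4 stages the median was -0.13, and -0.06 without mutant Lac10 replicate 2, and 0 members were called beside 0% of all genes, with Kdelr3 (-0.54, SE 0.21), Sec24d (-0.33) and Ssr3, a translocon-associated protein gene (-0.29), at an unadjusted p under 0.05 and a limma adjusted p of 1.

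Equality of all 4 stages was tested in each genotype with a moderated F test. In wild type it called 1 member, Fkbp11, beside 4.74% of all genes. In mutants it called 5, Ern1, Fkbp11, Herpud1, Kdelr2 and Ssr1, a translocon-associated protein gene, beside 6.08%. Equality of the 4 genotype differences was rejected for 0 members, beside 0.00656% of all genes, with 16 reaching an unadjusted p under 0.05, and for 4 without the 3 arrays of low correlation, beside 5.32%.

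Beside the members, 89 other genes of the same pathways were tested from a list of their own. Between the genotypes at Lac10 1 of the 89 was called, Selenos, which encodes a selenoprotein of ER degradation (-1.41, SE 0.26, limma adjusted p = 0.042). In the difference of the step from virgin to Lac10, 87 of 89 were below 0 with a median of -1.05 and 0 were called. These values include mutant Lac10 replicate 2, and the alternatives were not run for these genes. Comparisons that share arrays, such as the mutant step and the genotype difference at Lac10, are not independent of each other.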

How the data were processed

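Expression was measured on 24 single-colour arrays from biotin-labelled cRNA of total RNA, per the labels' protocols. On a log2 scale, the deposited values were made with RMA, the robust multi-array average, according to what is named per the submitters' processing notes; its version, a genome build and an annotation are not given in the sources used here. RMA gives all arrays a common distribution of probe intensities, so a shift that all probes share alike is not kept. The deposited values still differed in distribution, with a standard deviation per array from 1.65 to 1.99. It was lowest in the 3 arrays of low correlation (1.68 and 1.71 at dp18, 1.65 at Lac10), whose medians were the highest (5.56, 5.51 and 5.62). The part of this in the results was not tested. Values ran from 1.98 to 13.5 and array medians from 5.31 to 5.62, and for arrays their number limits the precision. No column of other samples was used.

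Of 41345 probe sets 23521 have a single symbol in the annotation of the platform, 1814 have several and 16010 have none. They hold 22180 genes, each represented by its probe set of highest mean, and a gene was tested where at least 3 arrays lay above their own median, which kept 15234 and removed 6946. Of the members, 4 have more than 1 probe set (Edem1, Sec61b, Spcs2 and Ssr1). The fit used limma 3.58.1 under R 4.3.3, with all 24 arrays and a mean for each group, and had 16 residual and 4.35 prior degrees of freedom and a median SE of 0.30 for a difference between 2 groups. The test was checked on simulated data. Titles and the stage label gave the groups. Titles number the wild-type arrays as replicates, while the mutant replicate numbers only follow accession order, and genotypes were not paired. Of 18 pairs of same-numbered wild-type arrays 4 had deviations correlated over 0.1 (range -0.39 to 0.31), so the numbers were not taken as pairs.

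The members and lists were chosen with earlier results of these data known. Values in every array are given for members called between genotypes, the 6 members with the largest differences between Lac10 and V in either genotype, the stress sensors and factors, and Hspa5 and Hsp90b1; Tram1 and Kdelr2 were added because they were called in a stage step. Alternatives covered the probe set, the filter, centring on the array median and on housekeeping genes, a variance trend, array weights, arrays left out and the wild-type number as a block. Housekeeping centring subtracts from each array the median deviation of 16 genes from their own means. Promoter windows of 250 bases come from RefSeq (GRCm38.p6), where 4 members have more than 1 window, and motifs were searched with Python 3.11.15 on both strands.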

Additional observations from a re-analysis of the deposited data

How the results depend on the processing

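Single-member results under the alternatives were counted only for the members whose values in every array are given here. Of these results 4424 stayed on the same side of the threshold, most of them not called, 135 gained a call and 81 lost one. Array weights, which count arrays by their fit, raised most counts of members, and also the share of all genes called, given here in brackets. For genotype the count went from 0 to 11 at V (36.6%) and from 2 to 19 at Lac10 (21.7%). For wild type it went from 1 to 28 from V to dp12 (63.9%) and from 0 to 6 from dp12 to dp18 (18.1%). It went from 0 to 12 from dp18 to Lac10 (25.6%) and from 3 to 30 from V to Lac10 (54%). The mutant step from V to dp12 went from 2 to 13 (26.9%). Array weights gave 6 (28.2%), 3 (1.42%) and 19 (41.6%) for the step differences V to dp12, dp18 to Lac10 and V to Lac10. For the F tests of genotype differences, wild-type stages and mutant stages they gave 21 (39.3%), 32 (80.8%) and 16 (36.9%). Without the 3 arrays of low correlation the counts were 4 (20.1%) for genotype at V and 0 (0%) at Lac10. They were 13 (41.2%) and 17 (27.8%) for wild type from V to dp12 and V to Lac10, and 5 (10.5%) and 2 (2.33%) for mutants. For the step differences V to dp12 and V to Lac10 they were 1 (3.14%) and 12 (13.2%). For the F tests of genotype differences and wild-type stages they were 4 (5.32%) and 15 (39.3%). Without wild-type Lac10 replicate 1 and mutant dp18 replicate 2 the count was 1 (0.978%) for wild type from dp18 to Lac10. It was 1 (0.0788%) and 2 (1.01%) for the step differences dp18 to Lac10 and V to Lac10, and 1 (0.223%) and 2 (6.64%) for the same F tests.

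Centring on the housekeeping genes, again with shares of all genes in brackets, gave 0 (0.0394%) for genotype at Lac10. It gave 2 (6.61%) and 16 (17.5%) for wild type from V to dp12 and V to Lac10. It gave 4 (6.28%) for mutants from V to dp12, 3 (1.98%) for the step difference V to Lac10 and 7 (11.3%) for wild-type stages. It moved the median of all genes from -0.19 to 0.05 for genotype at Lac10, from 0.28 to 0.07 and from -0.21 to 0.12 for wild type from V to dp12 and dp12 to dp18, and from 0.01 to -0.13, -0.17 to 0.20 and -0.18 to 0.21 for mutants from V to dp12, dp12 to dp18 and V to Lac10. Centring on the raw level of these genes, added after seeing the data, gave 3 and 0 for genotype at V and Lac10, 8 for wild type and 0 for mutants from V to Lac10. Housekeeping centring without the 3 arrays, also added, gave 0 for genotype at Lac10 and 17 and 1 for wild type and mutants from V to Lac10. Centring on the array median gave 1 for genotype at Lac10, 1 and 0 for mutants from V to dp12 and V to Lac10 and 2 for mutant stages, and no filter gave 0 for genotype at Lac10. Fits of the compared groups alone gave 0 for genotype at Lac10, 12 and 8 for wild type and 9 and 0 for mutants from V to dp12 and V to Lac10, 2 for the step difference V to dp12, and 2 and 0 for the F tests of wild-type and mutant stages.

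With the wild-type number as a replicate block, 6 members were called from V to Lac10 on the 12 wild-type arrays, and 5 with no block, an added fit. From V to dp12 it was 1 with the block, Spcs3, and 3 with no block; Fkbp11 lost its call there under the block (limma adjusted p = 0.0519). The other wild-type steps had 0 calls in both fits. Leaving out 1 array gave 0 to 16 members for genotype at Lac10 (0% to 9.12% of all genes). At the other stages and averaged it gave 0 to 0 (0% to 0.0722%). For wild type it gave 0 to 1 (0% to 5.93%) from V to dp12 and 0 to 0 (0% to 0.00656%) from dp12 to dp18. It gave 0 to 1 (0% to 0.972%) from dp18 to Lac10 and 1 to 4 (2.11% to 6.78%) from V to Lac10. For the same steps in mutants it gave 0 to 1 (1.72% to 3.88%) and 0 to 0 (0% to 0.164%). It then gave 0 to 0 (0% to 0.00656%) and 0 to 18 (0.42% to 11.8%). The step differences gave 0 to 0 (0% to 0.00656%), 0 to 1 (0% to 0.282%) and 0 to 19 (0% to 25.1%). The F tests gave 0 to 2 (0% to 0.926%), 1 to 3 (0.643% to 9.26%) and 1 to 21 (2.05% to 14.2%). Where no share of all genes stands beside a count in this section, the count is not read as particular to the members. The cause of these changes was not tested. With 3 arrays a group the median SE was 0.30, and differences well above it were also not called, as for Xbp1 and Eif2ak3 in wild type. A missing call is therefore not read as no change.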

Other observations

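Some genes of the same pathways outside the member list rose in lactating wild type. From virgin to Lac10, 14 of 89 genes rose and 0 fell (limma, adjusted p under 0.05), where 6.01% of all genes tested were called as higher. The median difference of the 89 genes was 0.58, against 0.15 over all genes. Their list was chosen with earlier results of these data known, so the contrast with all genes is no independent result. The largest differences were those of Edem2 (1.91, SE 0.33, adjusted p = 0.00188), which encodes a protein that trims the sugars of misfolded glycoproteins, and Derl3 (1.82, SE 0.44, adjusted p = 0.015), a gene of the export channel for degradation that also stands in the list of plasma cell markers. Ssr4, a translocon-associated protein gene, rose by 1.49 (adjusted p = 0.00668), Sec11c, which encodes a catalytic subunit of the signal peptidase, by 1.39, and Bhlha15, which encodes the factor MIST1 of secretory cells, by 1.23. Genes of oxidative folding rose with Prdx4 at 1.11 and Ero1b at 1.06, as did the BiP exchange factor gene Sil1 at 1.10. Of the vesicle genes Golga2, Copz1, Cope and the cargo receptor gene Lman1 rose by 0.73 to 0.92. The alternatives were run for the members alone, whose count in this comparison ran from 1 to 4 when single arrays were left out.

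In mutants from virgin to Lac10, 0 of the 89 genes rose and 2 fell, the stress gene Sesn2 (-2.14, SE 0.50, limma adjusted p = 0.0295) and the vesicle tether gene Uso1 (-1.23, SE 0.33, adjusted p = 0.0487), beside 2.88% of all genes, and the median was -0.45, with mutant Lac10 replicate 2 included. From virgin to dp12 the wild type had 3 genes called, all higher, namely Ganab (1.23), Golga2 (0.86) and Copz1 (0.76), beside 6.45% of all genes. The mutants had 2, Copz1 (0.94) and the oligosaccharyltransferase gene Ddost (0.86), beside 4.44%.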
